A study of Mus musculus with 3 samples.

Results

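The Sema5a Grik1 Otof glutamatergic nuclei of the adult mouse basolateral amygdala (BLA) were 93 nuclei, 64 in library 2 and 29 in library 3, out of 1306 glutamatergic nuclei and 8380 barcodes in these libraries. They were chosen by their own counts of unique molecular identifiers (UMIs, 1 per captured RNA molecule). Barcodes with more than 200 genes and less than 20% mitochondrial UMIs were kept. A glutamatergic nucleus had at least 1 UMI of *Slc17a7* or *Slc17a6*, none of *Gad1* or *Gad2*, and less than 0.1% of its UMIs from *Slc1a2* and *Slc1a3*. Among these, at least 2 UMIs of *Grik1*, 1 of *Sema5a* and 2 of *Otof* were required, with fewer than 2 of *Rspo2* and fewer than 2 of *Rorb*. The series holds 3 libraries with 9199 barcodes, all from the BLA of male C57BL/6NRj mice at postnatal day 56, with no second condition. Tissue from 4 littermate brains was pooled for each dataset, so no nucleus can be traced to an animal. Library 1 held 7 nuclei that met these criteria and entered no main comparison, only an alternative chosen after the data were seen. Totals were 24354374 UMIs in library 2 and 33049068 in library 3. The libraries are the replicates, and nothing states that they came from separate pools. The p-values measure only how the differences between sets of nuclei varied between these libraries. This spread was estimated in part from all genes together. Libraries 2 and 3 shared 7 barcode sequences.

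Glutamatergic projection neurons are the principal cells of the lateral and basal amygdala and load glutamate into vesicles with the transporters encoded by *Slc17a7* and *Slc17a6*. *Grik1* encodes a subunit of kainate receptors, glutamate-gated ion channels that act on both sides of synapses. *Sema5a* encodes a transmembrane semaphorin of axon guidance and synapse formation. *Otof* encodes otoferlin, a calcium sensor best known from vesicle release in inner hair cells. *Cdh13* encodes a cadherin anchored to the membrane by a lipid, and *Ano2* a calcium-activated chloride channel. The amygdala also holds GABAergic neurons, which use many of the same adhesion and receptor genes.

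The starts of *Sema5a*, which chose the nuclei, and of *Ano2* and *Plpp3*, which did not and which were both higher in these nuclei, are shown as the 250 bases upstream of the RefSeq transcription start (GRCm38.p6), 5′ to 3′ on the strand of the gene. All these genes lie on the plus strand. Capitals mark CAGATG (an E-box) and GGGCGG (a GC box) on either strand, and where matches overlap the capitals run together. CAGATG occurs in 14.4% and GGGCGG in 32.7% of the 32851 RefSeq windows of this length.
Sema5a, chr15:32244563-32244812: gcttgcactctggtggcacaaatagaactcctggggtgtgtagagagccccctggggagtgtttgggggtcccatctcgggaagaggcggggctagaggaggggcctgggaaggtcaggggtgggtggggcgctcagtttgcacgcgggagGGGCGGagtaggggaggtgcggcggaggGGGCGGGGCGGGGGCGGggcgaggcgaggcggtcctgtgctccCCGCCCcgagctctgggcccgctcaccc
Ano2, first start, chr6:125690169-125690418: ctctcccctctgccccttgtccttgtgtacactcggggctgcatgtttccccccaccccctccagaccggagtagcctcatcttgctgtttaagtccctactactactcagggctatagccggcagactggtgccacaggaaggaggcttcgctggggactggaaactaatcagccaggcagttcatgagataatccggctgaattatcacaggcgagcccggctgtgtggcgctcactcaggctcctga
Ano2, internal start, chr6:125710938-125711187: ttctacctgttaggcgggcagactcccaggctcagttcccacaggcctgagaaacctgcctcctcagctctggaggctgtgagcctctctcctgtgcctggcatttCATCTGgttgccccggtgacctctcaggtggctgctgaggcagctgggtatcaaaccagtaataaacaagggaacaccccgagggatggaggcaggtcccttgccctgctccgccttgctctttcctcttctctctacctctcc
Plpp3, chr4:105157097-105157346: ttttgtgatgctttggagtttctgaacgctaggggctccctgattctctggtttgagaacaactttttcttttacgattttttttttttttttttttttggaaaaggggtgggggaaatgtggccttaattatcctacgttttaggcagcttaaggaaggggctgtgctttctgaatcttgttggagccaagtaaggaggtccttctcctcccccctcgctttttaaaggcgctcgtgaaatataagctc
The *Sema5a* window held 5 GGGCGG matches, with 72.0% G and C. The first *Ano2* start held neither motif and the internal start held 1 CAGATG match. A further *Ano2* start close to the first, whose window (chr6:125690369-125690618) overlaps the one shown and is not printed, held 1 GGGCGG match, with 63.6% G and C. *Plpp3* held neither motif, with 42.4% G and C. The libraries were made with 3′ chemistry, so the counts do not tell which start was used.

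Among the glutamatergic nuclei, the Sema5a Grik1 Otof nuclei made up 7.81% in library 2 (64 of 819, exact Clopper-Pearson 95% interval 6.07 to 9.87) and 5.95% in library 3 (29 of 487, interval 4.02 to 8.44). The mean was 6.88% ± 1.31 (SD, n = 2 libraries). The intervals overlap, and they cover counting error only. The gate itself favours deep nuclei: the chosen nuclei had a median of 16006.5 and 14189 UMIs, against 10534 and 10058 over all glutamatergic nuclei. Among the 516 and 301 glutamatergic nuclei with at least 7700 UMIs, thinned at random to that number, the mean share by the gate on thinned counts was 5.36%. It was 4.27% when 3, 2 and 3 UMIs of *Grik1*, *Sema5a* and *Otof* were required, and 11.1% when 1 UMI of each sufficed.

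The genes of the rule are described here and were left out of the calls. A chosen nucleus carried a median of 7.5 *Grik1* UMIs in library 2 and 8 in library 3, 4 and 4 *Sema5a* UMIs, and 6 and 4 *Otof* UMIs. *Grik1* reached 86 UMIs in the highest nucleus of library 2 and 46 in library 3. *Slc17a7* was found in 55 of 64 and 25 of 29 nuclei and *Slc17a6* in 16 and 12, so most carried the first transporter. *Slc17a6* without *Slc17a7* was seen in 9 nuclei of library 2 and 4 of library 3.

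The minimums of *Grik1*, *Sema5a* and *Otof* were met together in 76 glutamatergic nuclei of library 2 and 35 of library 3, before the limits on *Rspo2* and *Rorb* were applied.

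The same gate on *Grik1*, *Sema5a*, *Otof*, *Rspo2* and *Rorb* passed 6 of 388 GABAergic nuclei in library 2 (1.55%, exact interval 0.570 to 3.34) and 18 of 677 in library 3 (2.66%, 1.58 to 4.17). Oligodendrocyte nuclei, which should lack this combination, gave 0 of 92 and 0 of 106, which allows shares of up to 3.26% and 2.83% by a limit of 3 nuclei, or 3.93% and 3.42% by the exact interval. Their median depth was 2596 and 1944.5 UMIs, against 7646 and 7246 in the GABAergic nuclei. *Grik1* is abundant in GABAergic nuclei: 1013 and 796 CPM (counts per 1000000 UMIs, with all nuclei of a kind in a library added up), against 774 and 848 CPM in the Sema5a Grik1 Otof nuclei. In the oligodendrocyte nuclei *Grik1* was at 174 and 363 CPM and *Sema5a* at 465 and 155, while *Otof* was at 3.47 and 8.64.

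**Figure D1:**
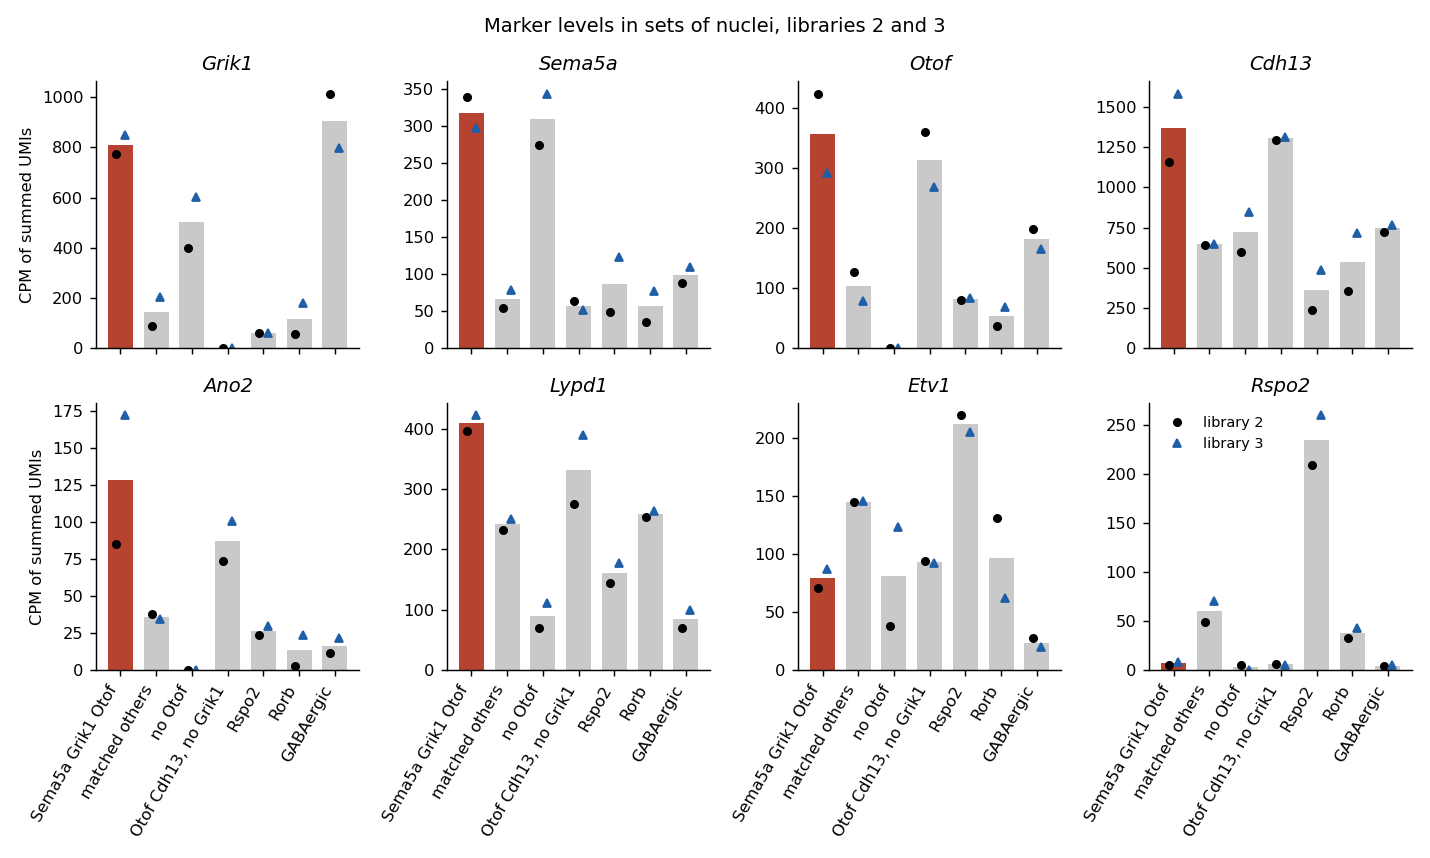
Level of 8 marker genes in CPM of summed UMIs (y axis, from 0) in 7 sets of nuclei (x axis). Bars give the mean of the 2 libraries, dots library 2 and triangles library 3, and red marks the Sema5a Grik1 Otof nuclei. Grik1, Sema5a, Otof and Rspo2 chose the nuclei, while Ano2 ranged from 85.0 to 172 CPM there and was at 0 in the set without Otof.

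The glutamatergic label was checked against markers. *Gria2*, an AMPA receptor subunit that the paper lists among its glutamatergic markers, was at 1164 CPM in library 2 and 1230 in library 3. It was at 1442 and 1385 in matched other glutamatergic nuclei. The whole list of 7 glutamatergic genes, led by *Gria2*, summed to 2128 and 1952 CPM against 2481 and 2047. Its *Slc17a8* was at 0 in library 2, and 0 of its 5 tested genes passed in the comparison below. Of the 8 GABAergic markers, *Gad1* and *Gad2* were at 0 by the rule, *Slc32a1*, *Dlx1* and *Dlx2* were at 0 in both libraries, and the list summed to 15.9 and 2.17 CPM. Of markers of other cells, the vascular list summed to 1.87 and 0 CPM, with *Flt1*, *Cldn5*, *Rgs5* and *Ebf1* at 0 in both. The microglia list summed to 28.0 and 34.8 CPM, led by *P2ry12*, with *Tmem119*, *C1qa* and *C1qb* at 0. The oligodendrocyte list summed to 138 and 63.0 CPM, led by *Mbp*, against 181 and 163 in the matched nuclei. The astrocyte list summed to 212 and 330 CPM, against 258 and 321, with *Aldh1l1* and *Gfap* at 0. This list includes *Slc1a2*, its most abundant gene in library 2, and *Slc1a3*, both limited by the rule, so its sum is no independent check. The highest sum was that of the oligodendrocyte precursor list, 386 and 343 CPM against 355 and 508, of which *Lhfpl3* made up 372 and 309 CPM. Barcodes holding more than 1 nucleus were scored with Scrublet, whose own threshold marked 0 nuclei in library 2 and 182 in library 3. Taking as many nuclei by rank as the loading predicts removed 0 of the 93 chosen nuclei and 4 and 2 of the matched ones.

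For comparison, each chosen nucleus was matched to 5 other glutamatergic nuclei of its library with the nearest UMI total, 320 nuclei in library 2 and 145 in library 3, with median depths of 15772.5 and 14127 UMIs. UMIs were summed per set and library and tested with edgeR, with the library as a block and Benjamini-Hochberg adjustment over all genes tested. *Cdh13* and *Ano2*, the markers of these nuclei that the rule did not use, were both higher. *Ano2* (chromosome 6, 125690419 to 126040126, plus strand) was at 85.0 CPM in library 2 and 172 in library 3, against 37.7 and 34.5 in the matched nuclei. Both libraries lay above both matched values. Its log2 fold change was 1.65 ± 0.20 (SE, edgeR adjusted p = 5.20e-14), and the gain was larger in library 3. At 7700 UMIs, *Ano2* was found in 48.3% and 65.4% of the chosen nuclei, against 16.2% and 21.4% of the matched. Oligodendrocyte nuclei had 0 and 4.32 CPM of it. *Cdh13* (chromosome 8, 118283733 to 119324921) was at 1159 and 1582 CPM against 642 and 650, a log2 fold change of 1.04 ± 0.12 (edgeR adjusted p = 5.85e-14). The 4 values again did not overlap. Without the library as a block, *Cdh13* missed the threshold (edgeR adjusted p = 0.0799).

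Other markers of BLA neurons in the study moved both ways. *Lypd1*, which encodes a Ly6-type protein that modulates nicotinic receptors (chromosome 1, 125867622 to 125913101), was at 396 and 422 CPM against 232 and 251, a log2 fold change of 0.74 ± 0.13 (edgeR adjusted p = 4.76e-06). Its call was lost with DESeq2, without the block, with a looser gate and with library 1 added together with 1 to 1 matching, at adjusted p up to 0.227 and a log2 fold change from 0.48 upward. It overlaps *Gpr39* on the other strand. *Etv1*, an ETS transcription factor (chromosome 12, 38779380 to 38870484), was lower, at 70.9 and 86.9 CPM against 145 and 145, with a log2 fold change of -0.93 ± 0.17 (edgeR adjusted p = 7.66e-06). DESeq2 did not call *Etv1* (adjusted p = 0.245). In both cases the libraries of one set lay apart from those of the other. *Bdnf*, a neurotrophin, was at 22.4 and 4.35 CPM against 26.3 and 27.5, and *Adamts2*, a procollagen protease, at 52.3 and 21.7 against 50.6 and 61.9. Neither passed the test (edgeR adjusted p = 0.295 and 0.426). *Rspo2* and *Rorb* were limited by the rule.

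Within the chosen nuclei, a UMI of *Cdh13* was found in 63 of 64 nuclei of library 2 and all 29 of library 3, and *Lypd1* in 55 and 28. *Ano2* was found in 36 (56.2%) and 20 (69.0%), and *Etv1* in 27 (42.2%) and 12 (41.4%). Oligodendrocyte nuclei, which are far shallower, gave 25.0% and 11.3% for *Cdh13*, 5.43% and 4.72% for *Lypd1* and 0% and 0.943% for *Ano2*. The *Etv1* level there was 38.2 and 34.6 CPM, against 70.9 and 86.9 in the chosen nuclei, so its detection in single nuclei is not read as expression. Per 10000 UMIs of a nucleus, *Cdh13* ran from 0 through a median of 10.8 to 89.4 in library 2 and from 0.602 through 20.1 to 40.9 in library 3. *Lypd1* ran from 0 through 3.36 to 13.5 and from 0 through 4.54 to 12.9. These ranges include counting error, which differs with the depth of each nucleus.

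The nuclei at the edges of the gate are given as a description. Among nuclei that passed the other criteria, those with no *Otof* UMI (12 in library 2, 20 in library 3) had 0 *Ano2* UMIs in both libraries. With 1 *Otof* UMI, just outside (12 and 13 nuclei), *Ano2* was at 72.5 and 19.3 CPM. With 2, just inside, there were only 3 and 4 nuclei, at 16.3 and 38.8 CPM, and with 3 or more (61 and 25 nuclei) *Ano2* was at 89.1 and 188 CPM. *Cdh13* with 1 *Otof* UMI was at 1685 and 1353 CPM, within or above the range inside the gate. The values on either side of the limit therefore overlapped. For *Grik1*, nuclei with 1 UMI (15 and 8) had 89.1 and 59.9 CPM of *Ano2*, and those with 2 (10 and 6) had 25.3 and 179. For *Sema5a*, nuclei with 0 UMIs (25 and 6) had 63.9 and 18.8 CPM, and those with 1 (14 and 6) had 62.0 and 86.6.

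**Figure D2:**
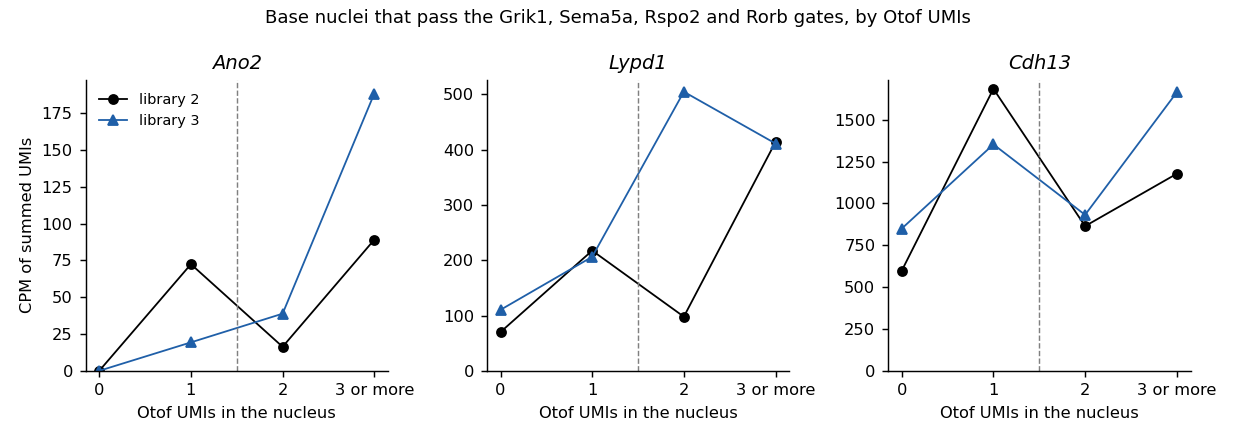
Level of Ano2, Lypd1 and Cdh13 in CPM of summed UMIs (y axes) in nuclei that passed all other criteria, grouped by their Otof UMIs (x axis). Dots are library 2, triangles library 3, and the dashed line is the gate. Ano2 was at 0 without Otof in both libraries, and the groups with 2 Otof UMIs held only 3 and 4 nuclei.

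Across all genes, 187 of 9696 tested (1.93%) were higher and 308 (3.18%) lower in the Sema5a Grik1 Otof nuclei at an edgeR adjusted p under 0.05, leaving out the genes of the rule. The median log2 fold change of all genes tested was 0.0027. At least a 2-fold change was found for 65 of the higher and 152 of the lower genes. The sign was the same in both libraries for 491 of the 495 (99.2%). The count rests on the test: DESeq2 called 23 genes higher and 56 lower, and edgeR without the library as a block 36 and 76. All of those genes were among the 495. Over the 13 alternatives, 34 of the 495 were called wherever they were tested, and 151 (30.5%) in only a minority of the alternatives that tested them, as is said of those named below. With library 1 added, which held only 7 such nuclei, and 1 matched nucleus in place of 5 in every library, 18 of 5751 genes were higher and 39 lower, an alternative chosen after the data were seen. In library 1 the median depth of the matched nuclei, 8183 UMIs, missed the tolerance of 5% around 8882.

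**Figure D3:**
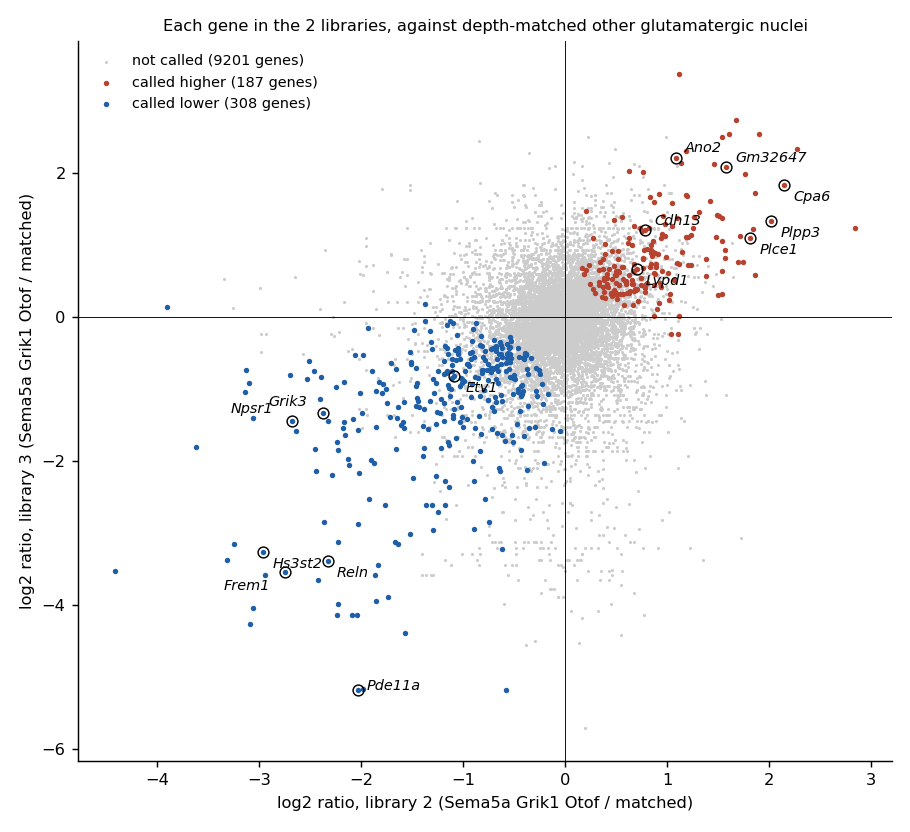
Log2 ratio of the Sema5a Grik1 Otof nuclei to the depth-matched other glutamatergic nuclei for each gene tested, library 2 (x axis) against library 3 (y axis), with a prior count of 2, rule genes left out. Red marks the 187 genes called higher, blue the 308 called lower and grey the rest, and circles mark named genes. Nearly all coloured genes lie in the quadrants of shared sign, 491 of 495.

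The largest rise among called genes with at least 20 CPM in the higher set of both libraries was *Cpa6*, a secreted carboxypeptidase (chromosome 1, 10324720 to 10719945, minus strand), at 112 and 102 CPM against 23.4 and 26.6. Its log2 fold change was 2.11 ± 0.21 (edgeR adjusted p = 1.66e-19). At 7700 UMIs it was found in 25.9% and 42.3% of the chosen nuclei against 7.93% and 7.14% of the matched, and oligodendrocyte nuclei had 3.47 and 0 CPM of it. The long non-coding RNA *Gm32647* (chromosome 7, 94042691 to 94709171) had 639 and 1298 CPM against 203 and 289, a log2 fold change of 1.88 ± 0.13 (edgeR adjusted p = 9.72e-39). Its level in library 3 was far above that in library 2, yet both stood above the matched nuclei. *Plpp3*, a lipid phosphatase that is also a common astrocyte marker, had 58.8 and 47.8 CPM against 13.1 and 17.4, a log2 fold change of 1.87 ± 0.28 (edgeR adjusted p = 8.27e-09). Oligodendrocyte nuclei had more of it, 86.8 and 82.1 CPM. *Plpp3* was the 1 gene called of 3 astrocyte markers tested, and the summed level of that list is given above. The part of astrocyte or oligodendrocyte RNA in this gene was not tested.

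Phospholipase C epsilon (*Plce1*, chromosome 19, 38481109 to 38785030) was at 175 and 93.5 CPM against 46.7 and 41.0, a log2 fold change of 1.62 ± 0.19. It was found in 56 of 64 and 16 of 29 nuclei. *Fndc1*, a fibronectin type III domain protein, was at 163 and 71.7 CPM against 45.9 and 39.7, so most of its rise of 1.48 ± 0.19 lay in library 2. The remaining rises by the rule for named genes had log2 fold changes from 1.39 to 1.59 and edgeR adjusted p from 3.82e-08 to 0.000574. They were *St8sia4*, a polysialyltransferase, *Myo5b*, a vesicle motor, *Sv2c*, a synaptic vesicle protein, *Pnrc1*, a nuclear receptor coactivator, *Gm1604b*, and *D430036J16Rik*, an antisense gene. *D430036J16Rik* overlaps *Htr1b* on the other strand, and whether counting kept strands apart is not given in the sources used here. For all of these, both libraries lay above both matched values.

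The falls described here had log2 fold changes from -3.10 to -2.32. *Hs3st2*, a heparan sulfate sulfotransferase (chromosome 7, 121391859 to 121501770), was at 12.1 and 10.9 CPM against 96.0 and 106, a log2 fold change of -3.10 ± 0.28 (edgeR adjusted p = 2.89e-23). It was found in 10 of 64 and 2 of 29 nuclei. *Reln*, encoding the secreted protein reelin, was at 6.53 and 6.52 CPM against 34.9 and 72.0, and *Frem1*, an extracellular matrix gene, at 5.60 and 2.17 against 40.9 and 32.3. The matched nuclei include those with *Rspo2* or *Rorb*, which the rule kept out of the chosen set. *Frem1* was at 113 and 81.7 CPM in the nuclei with at least 2 *Rspo2* UMIs and at 118 and 51.5 in those with at least 2 of *Rorb*. Against nuclei without *Rspo2* or *Rorb*, meaning fewer than 2 UMIs of either, its log2 fold change was -1.66 and missed the threshold (edgeR adjusted p = 0.123). That alternative also used 4 matched nuclei in place of 5 for each chosen nucleus. *Pde11a*, a cyclic nucleotide phosphodiesterase, was at 4.67 and 0 CPM against 21.0 and 27.9, in library 3 at least 4.28-fold lower by a floor of 3 UMIs per library. *Rai14*, an actin-associated protein, showed the same pattern, with 6.53 and 0 CPM against 27.2 and 27.5. The non-coding *2600014E21Rik* and *9630014M24Rik* were also lower. Against nuclei without *Rspo2* or *Rorb*, *2600014E21Rik* had a log2 fold change of -1.66 rather than -2.37 and was no longer called. *9630014M24Rik* overlaps *Arhgap26* on the same strand, so its reads are uncertain. Some of these genes were also low in the *Otof* *Cdh13* nuclei without *Grik1*, a set described below. There *Frem1* was at 8.07 and 5.50 CPM, *Pde11a* at 8.07 and 5.50 and *Rai14* at 9.31 and 9.62. *Hs3st2* was at 26.1 and 30.2 CPM in that set and *Reln* at 30.4 and 17.9. In the Sema5a Grik1 nuclei without *Otof*, *Frem1* and *Pde11a* were at 0 CPM, but *Hs3st2* was at 194 and 71.4.

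**Figure D4:**
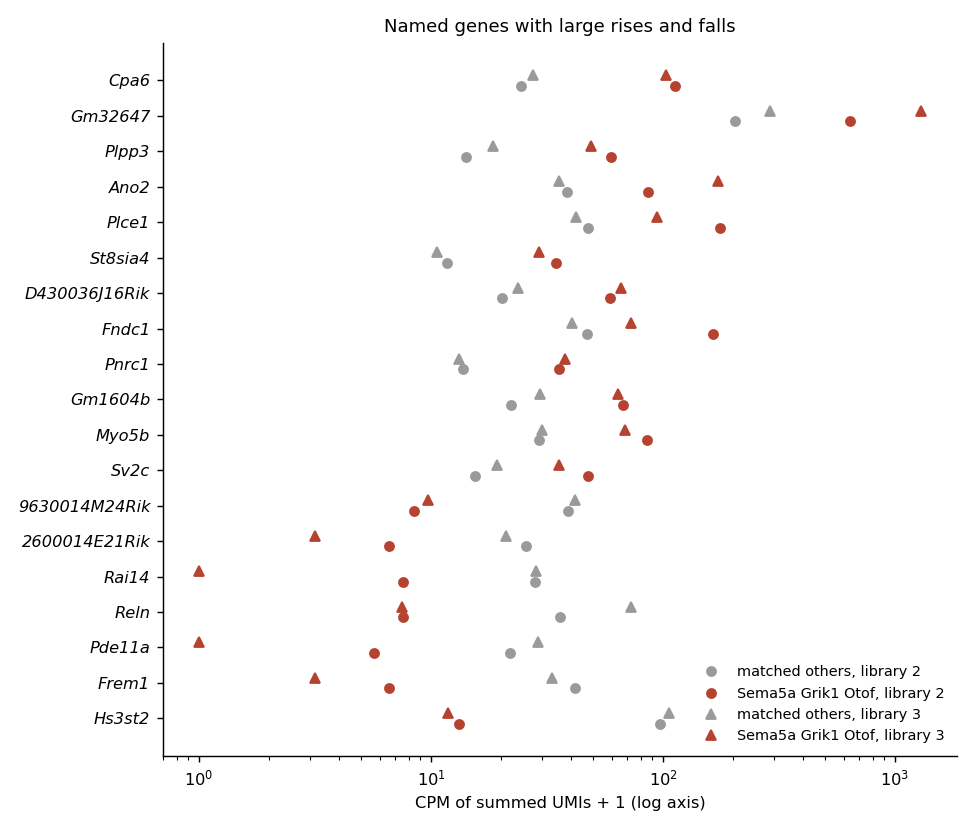
CPM of summed UMIs plus 1 (x axis, log scale) of the 12 genes with the largest rises and 7 of the 8 with the largest falls (y axis). Red marks the Sema5a Grik1 Otof nuclei and grey the matched other nuclei, dots library 2 and triangles library 3. For each gene the red and grey values of the 2 libraries do not overlap, and Rai14 and Pde11a were at 0 in library 3.

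Gene lists by role followed, each read against the 1.93% higher and 3.18% lower over all genes. Of the kainate receptor genes besides *Grik1*, 6 were tested and 1 was lower, *Grik3*, at 29.9 and 58.7 CPM against 152 and 142, a log2 fold change of -1.91 ± 0.20 (edgeR adjusted p = 8.30e-18). Of 11 AMPA receptor genes, the auxiliary subunit *Shisa6* was higher (0.46 ± 0.14) and the subunit *Gria4* lower (-0.62 ± 0.13). *Shisa6* was called in only 6 of 13 alternatives, with log2 fold changes down to 0.0022. Of 6 metabotropic receptor genes, *Grm8* (307 and 363 CPM against 810 and 809) and *Grm3* (70.0 and 52.2 against 177 and 191) were lower, with log2 fold changes of -1.31 ± 0.13 and -1.55 ± 0.18. None of 5 NMDA receptor and 11 GABA-A receptor genes passed the test, with medians of 0.01 and 0.19 on the log2 scale. *Grin2a* was at 1693 and 1641 CPM against 1852 and 1785, and *Gabrb2* at 440 and 622 against 378 and 430.

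Receptors for monoamines, acetylcholine and peptides included some of the clearest falls. Of 13 monoamine and acetylcholine receptor genes tested, 2 were higher and 6 lower, with a median of -0.44. The muscarinic receptor gene *Chrm3* was at 79.4 and 128 CPM against 277 and 352 (log2 fold change -1.67 ± 0.16, edgeR adjusted p = 1.60e-21). The serotonin receptor genes *Htr1f*, *Htr4* and *Htr7* had log2 fold changes of -1.16, -1.94 and -2.52. The higher ones were *Drd1* (15.9 and 6.52 CPM against 3.56 and 2.18) and *Htr1b* (16.8 and 15.2 against 6.56 and 3.92), named after their values were seen. They rest on 17 and 3 UMIs of *Drd1* and 18 and 7 of *Htr1b* in the chosen nuclei, and *Htr1b* was called in 5 of the 11 alternatives that tested it. Of 14 peptide receptor genes, *Trhr*, for thyrotropin-releasing hormone, and *Galr1*, for galanin, were higher (0.99 ± 0.21 and 2.32 ± 0.58), and *Npsr1*, for neuropeptide S, and *Oprk1*, for dynorphin, lower. *Npsr1* was at 21.5 and 63.0 CPM against 136 and 163 (-2.06 ± 0.20, edgeR adjusted p = 9.69e-20). *Galr1* and *Oprk1* reached at most 12.1 and 3.73 CPM here and were each called in 6 of the 10 alternatives that tested them. Of the neuropeptide genes 1 could be tested, *Cck*, which did not pass (edgeR adjusted p = 0.167).

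Cadherins passed the test in both directions, and the guidance genes that passed were nearly all lower. Of 20 cadherins and protocadherins tested, 6 were higher (*Cdh13*, *Cdh12*, *Pcdh9*, *Cdh22*, *Cdh4*, *Cdh7*) and 7 lower (*Pcdh15*, *Cdh11*, *Cdh18*, *Cdh6*, *Cdh9*, *Cdh10*, *Cdh8*), with a median of -0.23. *Pcdh15* was at 337 and 393 CPM against 876 and 836, a log2 fold change of -1.27 ± 0.13, and *Cdh18* at 289 and 330 against 614 and 600. Of 21 other guidance genes, 0 were higher and 7 lower. They were led by *Robo2*, a Slit receptor (357 and 591 CPM against 733 and 940), *Ntng1*, a netrin-like synaptic protein, and *Efna5*, an ephrin, with log2 fold changes of -0.88, -0.90 and -1.07. Besides *Sema5a*, 20 semaphorin and receptor genes were tested: the coreceptor *Nrp1* was higher and *Sema3e*, *Plxna2*, *Sema6d* and *Sema6a* lower. These calls were among the less stable ones: *Plxna2*, *Sema6d* and *Sema6a* were each called in 6 of 13 alternatives, *Nrp1* in 8 and *Sema3e* in 9. Of the cadherins, *Cdh7* was called in 6 and *Cdh8* in 4 of 13, and *Cdh8* ranged up to 0.075 on the log2 scale. *Nrp1* was higher mainly in library 2 (254 against 111 CPM) and hardly in library 3 (128 against 120). *Sema6d* fell mainly in library 3 (109 against 311 CPM, with 214 against 212 in library 2). Of 20 neurexin, teneurin and partner genes, 4 were lower, *Clstn2*, *Nrxn3*, *Tenm3* and *Tenm1*, by 0.63 to 0.91 on the log2 scale.

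The collagen, ADAMTS and anoctamin genes that passed the test were mostly higher. Of 13 collagen and ADAMTS genes, 5 were higher and 1 lower, with a median of 0.06. *Col25a1*, a transmembrane collagen, was at 583 and 787 CPM against 231 and 283 (1.38 ± 0.13, edgeR adjusted p = 1.60e-21), and *Col23a1*, another, at 186 and 185 against 91.9 and 81.1. *Adamtsl1*, a secreted ADAMTS-like protein, was at 1384 and 1248 against 690 and 847, and *Col12a1* had a log2 fold change of 1.32 ± 0.25. Of 7 anoctamins, 4 were higher and 0 lower, with a median of 0.53: *Ano2*, *Ano4* (0.71 ± 0.14), *Ano3* (0.53 ± 0.13) and *Ano6* (0.45 ± 0.15). The last had an edgeR adjusted p of 0.0465 and was called in only 1 of 13 alternatives. Of 4 Ly6-type genes, *Lypd1* and *Ly6h* were higher, the second in 5 of 13 alternatives.

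Among ion channels, 0 of 31 potassium channel genes were higher and 5 lower. *Kcnh1* was at 86.8 and 58.7 CPM against 189 and 129, and *Kcnip3*, *Kcnh5* and *Kcnn2* had log2 fold changes from -1.16 to -0.60. Of 20 sodium, calcium and HCN channel genes, 3 calcium channel genes were higher (*Cacna2d3*, *Cacna1h* and *Cacna1c*, from 0.37 to 0.85) and *Cacna1a* was lower (-0.43 ± 0.13). Of these, *Cacna1c* was called in 2 of 13 alternatives and the other 3 in 6 each. Of 17 vesicle release genes besides *Otof*, *Cplx2*, encoding a complexin, was higher, at 108 and 91.3 CPM against 51.9 and 34.9 (1.15 ± 0.20, edgeR adjusted p = 7.11e-07). *Rims2*, of the active zone, and *Cadps2*, of vesicle priming, were lower by 0.65 and 0.48. The other 14 did not pass the test.

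Transcription factors of pallial neurons were mostly lower where they differed: 1 of 36 tested was higher and 12 lower, with a median of -0.44. Among the lower ones were *Tshz3* (28.0 and 39.1 CPM against 122 and 117, log2 fold change -1.94 ± 0.22), *Nfib* (-1.14 ± 0.14) and *Lmo4* (-1.33 ± 0.24). The factor that was higher, *Tshz2* (704 and 1139 CPM against 513 and 590), had a log2 fold change of 0.67 ± 0.13 (edgeR adjusted p = 7.68e-06). Of 3 activity-dependent genes tested, *Homer1*, a postsynaptic scaffold, and *Nr4a1* were lower (-0.80 ± 0.15 and -1.29 ± 0.37). Of 8 neurotrophin and neuregulin genes, *Erbb4*, a neuregulin receptor that is abundant in GABAergic neurons, was lower at 132 and 178 CPM against 264 and 541 (-1.30 ± 0.15), and *Ntrk2*, the receptor of Bdnf, by 0.44. Of 9 phosphodiesterases, *Pde7b* and *Pde2a* were higher and *Pde4b* and *Pde11a* lower. In the calcium-binding list *Hpcal1* was higher and *Ncald* lower, and in the endocannabinoid list *Mgll*, a lipase that degrades 2-AG, was lower (-0.80 ± 0.26). *Mgll* was called in 3, *Hpcal1* in 4 and *Pde2a* in 5 of 13 alternatives. No R-spondin or Lgr receptor gene of 3 tested, other than the limited *Rspo2*, passed.

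**Figure D5:**
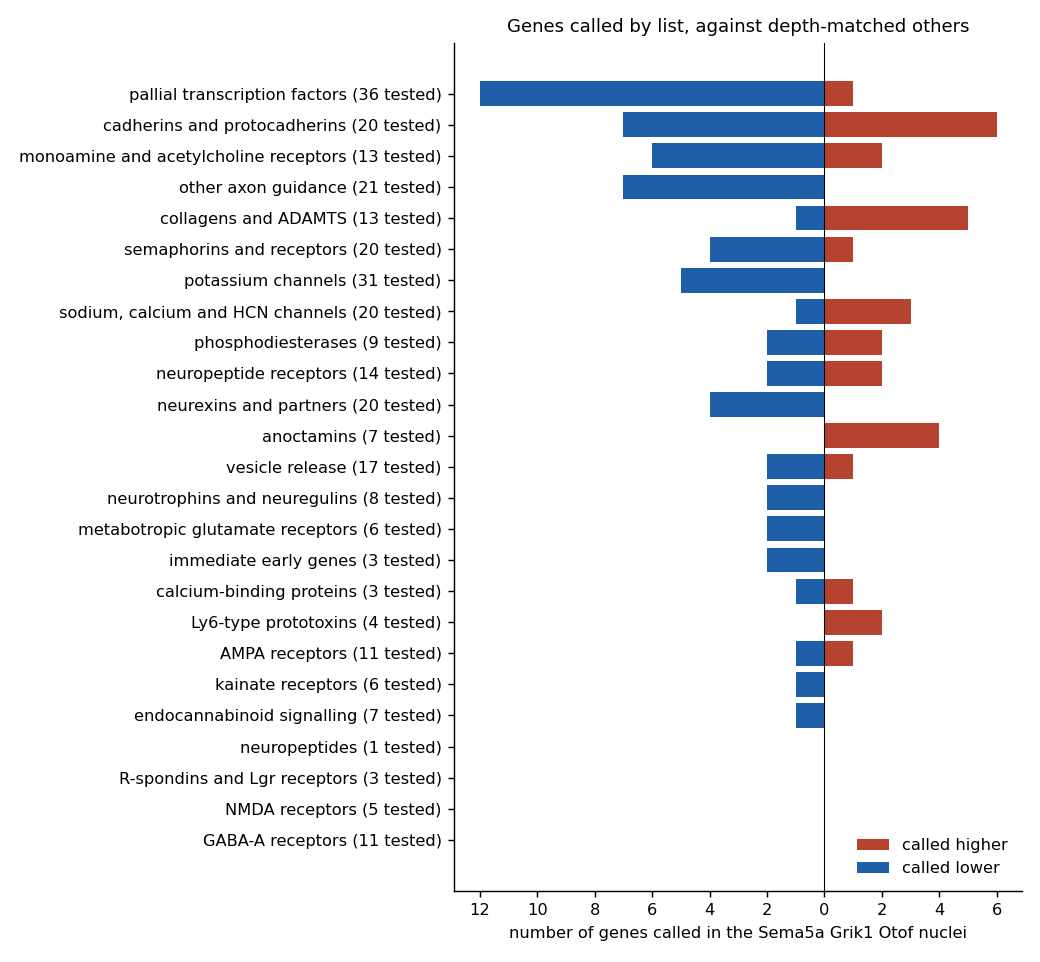
Number of genes called higher (red, right) and lower (blue, left) in the Sema5a Grik1 Otof nuclei against depth-matched other glutamatergic nuclei (x axis) in each gene list (y axis, with the number of genes tested, rule genes left out). Pallial transcription factors had 12 lower and 1 higher, anoctamins 4 higher and 0 lower, and over all genes 1.93% were higher and 3.18% lower.

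Among markers of other cells in this comparison, 0 of 2 precursor, 0 of 3 microglia, 0 of 1 GABAergic and 0 of 1 ependymal genes tested passed, while *St18* and *Mog* of 5 oligodendrocyte genes and *Ebf1* of 2 vascular genes were lower. *Ebf1* was at 0 CPM in both libraries against 6.75 and 14.4, at least 2.41-fold and 2.21-fold lower by a floor of 3 UMIs per library. With the looser gate its direction turned, to a log2 fold change of 0.44. *Mog* was at 0.934 and 0 CPM against 7.50 and 6.11. *St18* was called in 4 of 11 alternatives, *Mog* in 4 of 6 and *Ebf1* in 6 of 8. Without nuclei in which oligodendrocyte markers reached 0.05% of UMIs, a limit chosen after the data were seen, 179 genes were higher and 306 lower.

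A first set of like nuclei held *Sema5a* and *Grik1* at the same limits but no *Otof* UMI, 12 nuclei in library 2 and 20 in library 3. Since these were few, 1 chosen nucleus was matched to each of them. Unless said to cover all chosen nuclei, levels in this comparison are those of the 12 and 20 matched ones. In library 2 the depths matched, with medians of 13601.5 and 13589.5 UMIs, but in library 3 they were 12077 and 5339. Of 3123 genes tested, 118 (3.78%) were higher and 154 (4.93%) lower in the Sema5a Grik1 Otof nuclei by edgeR. *Ano2* was at 59.4 and 199 CPM against 0 and 0, at least 3.68-fold and 10.2-fold higher by a floor of 3 UMIs per library (edgeR adjusted p = 9.29e-09). *Lypd1* was at 405 and 420 CPM against 70.1 and 110 (2.24 ± 0.34, edgeR adjusted p = 1.37e-07), and *Cdh13* at 1399 and 1756 against 598 and 850 (1.17 ± 0.26, edgeR adjusted p = 0.000607). All 3 markers thus stood apart from the nuclei without *Otof* in both libraries. DESeq2 called *Lypd1* but neither *Ano2* nor *Cdh13*. *Etv1*, at 32.4 and 102 CPM against 37.7 and 123, did not pass the test.

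Other large rises against the nuclei without *Otof* were *Tll1*, a metalloprotease (113 and 84.8 CPM against 0 and 6.49), *Car12*, a carbonic anhydrase (59.4 and 59.4 against 5.39 and 0), *Cpa6* and *Plce1*. *Cpa6* was at 75.6 and 165 CPM against 5.39 and 13.0, and *Plce1* at 189 and 97.5 against 16.2 and 6.49 (log2 fold changes of 3.66 ± 0.64 and 3.61 ± 0.57). The falls included *Prr5l* (0 CPM in both libraries against 151 and 156, at least 9.31-fold and 12.2-fold lower), *Alk* (5.40 and 0 against 167 and 162), *St18* (0 and 4.24 against 140 and 169) and *Hs6st3* (5.40 and 25.4 against 711 and 448). Over all chosen nuclei, *Hs6st3* was at 169 and 124 CPM and *Alk* at 55.1 and 4.35. Across the alternatives, the log2 fold change of *Hs6st3* shrank from -5.00 to as little as -1.46. That of *Alk* shrank from -5.73 to as little as -1.77. *St18* is an oligodendrocyte marker, and *Prr5l* was at 2138 and 3010 CPM in the oligodendrocyte nuclei. *Alk* was at 578 and 541 CPM in the GABAergic nuclei and *Hs6st3* at 445 and 468. In the matched other glutamatergic nuclei *Hs6st3* was at a similar level, 423 and 414 CPM. The GABAergic list summed to 70.1 and 13.0 CPM in the nuclei without *Otof*, against 15.9 and 2.17 in all chosen nuclei. The oligodendrocyte list summed to 738 and 655 CPM in the nuclei without *Otof*, against 138 and 63.0 in all chosen nuclei, and all 3 of its testable genes were called lower. The precursor list was higher there too, at 1218 and 1524 CPM against 386 and 343, led by *Lhfpl3*. The part of glial and GABAergic RNA in these falls was not tested. Without nuclei in which oligodendrocyte markers reached 0.05% of UMIs, 66 genes were higher and 93 lower.

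By list, the Sema5a Grik1 Otof nuclei had more of the NMDA receptor subunits *Grin2a* (1799 and 1803 CPM against 948 and 804) and *Grin2b* (2194 and 2265 against 1342 and 1453), of 4 tested, than the nuclei without *Otof*. Of 4 anoctamins, 3 were higher and 0 lower, of 6 collagen and ADAMTS genes 3 and 0, and of 19 cadherins 3 higher and 6 lower, beside 3.78% higher and 4.93% lower over all genes in this comparison. *Adamtsl1* was at 1610 and 1374 CPM against 108 and 441 and *Col23a1* at 303 and 199 against 43.1 and 19.5. *Pcdh15* was at 64.8 and 377 CPM against 3061 and 1012, and *Chrm3* at 21.6 and 115 against 625 and 350. Over all chosen nuclei *Pcdh15* was at 337 and 393 CPM, and the *Chrm3* levels given above for them were also higher. As given above, the nuclei without *Otof* held more RNA of the oligodendrocyte and precursor lists. The part of such RNA in these list results, *Pcdh15* among them, was not tested. The median log2 fold change of all genes tested was -0.0085. DESeq2 called 3 genes higher and 18 lower, and 122 of the 272 calls (44.9%) were made in only a minority of the alternatives that tested the gene. *Grin2b* was called in 1 and the anoctamin *Ano4* in 2 of 11.

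A second set of like nuclei held at least 2 *Otof* UMIs and at least 1 *Cdh13* UMI but no *Grik1* UMI, 129 nuclei in library 2 and 58 in library 3. *Cdh13* chose this set and was left out of its calls. After matching 1 to 1, the median depths were 16006.5 and 15510.5 UMIs in library 2 and 14189 and 14225 in library 3. Of 7088 genes tested, 69 (0.973%) were higher and 63 (0.889%) lower by edgeR. *Ano2* and *Lypd1* did not pass the test here. *Ano2* was at 85.0 and 172 CPM against 84.0 and 91.6 (0.40 ± 0.22, edgeR adjusted p = 0.698), *Lypd1* at 396 and 422 against 275 and 380 (0.35 ± 0.16, edgeR adjusted p = 0.435), and *Etv1* at 70.9 and 86.9 against 78.2 and 91.6. *Plce1*, at 175 and 93.5 CPM against 85.9 and 89.4, also missed the threshold (0.68 ± 0.22, edgeR adjusted p = 0.0878). Both *Lypd1* values lay above both comparison values, and in simulated data this comparison recovered 22% of 2-fold changes.

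What differed from the *Otof* *Cdh13* nuclei without *Grik1* was led by *Plpp3* (58.8 and 47.8 CPM against 5.79 and 6.71), with a log2 fold change of 3.14 ± 0.45 (edgeR adjusted p = 1.32e-09). *Gm32647* was at 639 and 1298 CPM against 241 and 212 (1.94 ± 0.15), and *Cpa6* at 112 and 102 against 29.0 and 29.1 (1.89 ± 0.27, edgeR adjusted p = 1.65e-09). *Cdh12*, a neuronal cadherin, was at 241 and 159 CPM against 51.2 and 53.6 (1.99 ± 0.23, edgeR adjusted p = 1.63e-15), and *Pnrc1* and *Prkd1*, encoding protein kinase D1, rose by 2.34 ± 0.50 and 2.17 ± 0.46. *Col25a1* and *Adamtsl1* were higher here as well, at 583 and 787 CPM against 219 and 273 and at 1384 and 1248 against 464 and 653. *Cpa6*, *Gm32647*, *Col25a1* and *Adamtsl1* were therefore called higher against all 3 comparison sets. The comparisons share the chosen nuclei and are not independent.

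The falls against this set were *Cdh6* (6.53 and 10.9 CPM against 29.0 and 55.9), the transcription factors *Foxp2* and *Meis2*, *Erbb4*, and *A830036E02Rik*, an antisense gene that overlaps *Krt12*. *Meis2* was at 179 and 130 CPM against 467 and 749 (-1.87 ± 0.17, edgeR adjusted p = 6.82e-26). *Foxp2* was at 24.3 and 4.35 CPM against 31.9 and 170, and *Erbb4* at 132 and 178 against 273 and 1066. The levels of *Foxp2* and *Erbb4* in the comparison set were thus far higher in library 3 than in library 2, and *Foxp2* hardly differed in library 2. The GABAergic list summed to 11.2 and 34.4 CPM in this set, against 15.9 and 2.17 in the chosen nuclei, with no gene testable, and its part in these falls was not tested. Of 30 potassium channel genes 2 were lower, *Kcnh1* and *Kcnip3*, beside 0.889% of all genes. Against this set, 0 of 6 anoctamins, 0 of 5 metabotropic receptor genes and 0 of 10 peptide receptor genes passed the test. Of 9 monoamine and acetylcholine receptor genes 0 were higher and 1 lower, and of 10 collagen and ADAMTS genes 2 and 0. Of 33 pallial transcription factors 1 was higher and 4 lower, and of 19 cadherins 2 and 3. Over all genes 0.973% were higher and 0.889% lower. DESeq2 called 7 genes higher and 4 lower, and edgeR without the library as a block 8 and 4. Of the 132 calls, 39 (29.5%), *Kcnh1* and *Kcnip3* among them, were made in only a minority of the alternatives that tested the gene.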

How the data were processed

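Single-nucleus RNA of the mouse basolateral amygdala was sequenced in 3 libraries with 10x 3′ chemistry. The deposited values are UMI counts per gene and barcode, made by the authors with Cell Ranger 7.0.1 per the labels, not normalized (32285 genes, of which 99.6% were found in GENCODE vM21, GRCm38). The members and gene lists were chosen with earlier results of these data known. Totals were 8078394, 24354374 and 33049068 UMIs for libraries 1, 2 and 3, and intervals and floors cover counting error only.

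Counts were summed per set and library and tested with the quasi-likelihood test of edgeR 4.0.16 (R 4.3.3, TMM, its filter on low counts, library as a block, since each library supplied both sets) at an adjusted p under 0.05. The 11 rule genes were left out of calls. Comparison nuclei were matched on UMI totals to a median within 5%. Against the nuclei without *Otof* this tolerance was not met in library 3, and matching was reversed because these nuclei were fewer. Thinning was to 7700 UMIs, and the doublet rate assumed was 0.8% per 1000 nuclei.

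Named genes were the study's markers and *Ano2*, the 12 largest rises and 8 largest falls (5 and 5 in the other comparisons) with the same sign in both libraries and at least 20 CPM in the higher set, and up to 4 called genes per list in order of p. Some genes that this rule names are not reported here. Alternatives were DESeq2 1.42.0, RLE factors, no block, no filter, no matching, thinning, other gates, doublet, hemoglobin and oligodendrocyte filters, and library 1 together with 1 to 1 matching. Tested on simulated data for the comparison with other glutamatergic nuclei, the procedure recovered 39% of 2-fold and 86% of 4-fold changes over 9705 genes, with 4.58% false among its calls. All simulated data were drawn with the same preset dispersion for every gene and equal changes in both libraries. They therefore do not measure the false share among the real calls.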

Additional observations from a re-analysis of the deposited data

Results flagged for a closer look

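Library 1, which entered no main comparison, also held nuclei that passed the criteria: 7 of its 58 glutamatergic nuclei (12.1%, exact 95% interval 4.99 to 23.3). They are given here because library 1 lies outside the main comparisons. The count follows from the criteria themselves and is a description. Set against the other glutamatergic nuclei of library 1, *Cdh13* was at 496 against 283 CPM and *Lypd1* at 120 against 178 CPM. *Ano2* had 1 UMI against 3 and *Cpa6* 0 against 6, in sets of unequal summed UMIs. In CPM, *Ano2* was higher in the chosen nuclei and *Cpa6* lower. Of the other largest rises in libraries 2 and 3, *D430036J16Rik*, *Fndc1* and *Pnrc1* were higher in CPM in library 1. *Gm32647*, *Plpp3*, *Plce1*, *St8sia4*, *Gm1604b*, *Myo5b* and *Sv2c* were lower there. Of the genes called higher in libraries 2 and 3 with at least 10 UMIs in library 1, 71 of 146 (48.6%) were higher there too, beside 48.9% of all tested genes. Of those called lower, 174 of 260 (66.9%) were lower, beside 51.1% of all. With so few nuclei, library 1 carried no test of its own.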

How the results depend on the processing

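Against the matched nuclei, 495 genes were called. The count was 79 with DESeq2, 112 without the library as a replicate block and 185 with a looser gate. It was 258 against nuclei without *Rspo2* or *Rorb*, which also went with 4 matched nuclei in place of 5. After thinning, which also left out nuclei under 7700 UMIs and the matching, it was 181. With library 1, which also went with 1 matched nucleus in place of 5, it was 57. Under the other 7 alternatives it lay between 348 and 522. Against the nuclei without *Otof*, 272 became 21 with DESeq2, 147 with RLE factors, 148 without doublets, 58 and 176 with looser and stricter gates, 110 without the block, 180 after the same thinning and 159 without nuclei holding oligodendrocyte RNA. Against the *Otof* *Cdh13* nuclei, 132 became 11 with DESeq2, 54 with the looser gate, 50 without a filter, 12 without the block and 85 after thinning. The share of calls that were higher moved from 43.4% to 14.3% with DESeq2 against the nuclei without *Otof*, and from 52.3% to 63.6%, 70.4% and 66.7% with DESeq2, the looser gate and no block against the *Otof* *Cdh13* nuclei. The share of nuclei, 6.88%, was 4.27%, 11.1% and 5.36% with a stricter gate, a looser gate and a gate on thinned counts of nuclei with at least 7700 UMIs, and 5.95% to 7.81% leaving out a library. In the first comparison 8 calls up and 22 down held in all 13 alternatives. The cause of these changes was not tested.

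The sign turned for genes mostly not called, and for the called *Cdh8* (up to 0.075). Against nuclei without *Rspo2* or *Rorb*, matched 4 to 1, *Adamts2* was at 0.062 and *Cfap299* at 0.040 on the log2 scale. With the looser gate, *Lhfpl3* was at 0.46, *Vcan* at -0.35 and *Ebf1*, a called gene, at 0.44. With the stricter gate, *Vcan* was at -0.20, *P2ry12* at -0.17 and *Cfap299* at 0.17. *Vcan* was at -0.0085 without a filter, *P2ry12* at -0.62 after thinning and *Lhfpl3* at 0.15 with library 1 and 1 matched nucleus.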
